A study of Mus musculus with 6 samples.

Results

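The 10 immediate early genes Fos, Jun, Junb, Egr1, Ier2, Ier3, Myc, Dusp1, Zfp36 and Btg2 were followed across 6 arrays of mouse liver RNA. They were taken by gene symbol from the annotation of the array, which names 19057 genes. All 10 had a probe, 12 probes in total. Of these probes, 7 were above background on all 6 arrays, 1 on some arrays and 4 on none. The genes Fos, Jun, Junb, Egr1, Ier3, Dusp1 and Zfp36 could therefore be compared, while Ier2, Myc and Btg2 could not.

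Immediate early genes are transcribed within minutes of a growth factor, hormone, cytokine or stress signal, without new protein synthesis, and their mRNAs decay quickly. In liver they are known for their response to refeeding, partial hepatectomy, inflammation and the handling of the tissue. Fos, Jun and JunB are subunits of the AP-1 transcription factor, and Egr1 and Myc are transcription factors. Dusp1 is a phosphatase that switches off MAP kinases, Zfp36 (tristetraprolin) promotes the decay of AU-rich mRNAs, and Btg2 is an antiproliferative cofactor of mRNA deadenylation.

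Each array held pooled RNA of FVB mice aged 10 weeks, from tissue labelled liver slice, with 1 array in each of 6 groups. WT mice were refed for 2 h or fasted for 24 h. The LIXs and WT livers came from 48 h or 24 h on doxycycline (Dox) chow, with the last 6 h spent without food. LIXs mice carry an Xbp1s transgene under a Dox-responsive (TRE) promoter, and Xbp1s is the active transcription factor of the unfolded protein response. The labels give neither the driver of the transactivator, nor whether WT mice carry part of the system, nor the number of animals in a pool. They mention no Dox for the refed and fasted mice. With 1 pool per group no spread between animals was measured, and the number of arrays limits the precision. In whole-liver RNA, fewer cells of a type and less RNA per cell cannot be told apart.

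The windows before the annotated gene starts were examined because 6 of the 7 detected genes had an entry in the RefSeq promoter table (GRCm38.p6), namely Fos, Jun, Junb, Ier3, Dusp1 and Zfp36. The 250 bases before the start are shown for the 4 of these 6 genes with a match, 5′ to 3′ on the strand of the gene. Capitals mark the matches to the motifs described after the sequences.
Fos (chr12:85473640-85473889, plus strand): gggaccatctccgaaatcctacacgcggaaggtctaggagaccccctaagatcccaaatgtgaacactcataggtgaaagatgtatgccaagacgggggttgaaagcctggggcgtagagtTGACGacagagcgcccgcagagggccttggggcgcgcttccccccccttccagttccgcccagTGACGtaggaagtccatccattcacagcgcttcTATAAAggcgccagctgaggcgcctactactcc
Junb (chr8:84978749-84978998, minus strand): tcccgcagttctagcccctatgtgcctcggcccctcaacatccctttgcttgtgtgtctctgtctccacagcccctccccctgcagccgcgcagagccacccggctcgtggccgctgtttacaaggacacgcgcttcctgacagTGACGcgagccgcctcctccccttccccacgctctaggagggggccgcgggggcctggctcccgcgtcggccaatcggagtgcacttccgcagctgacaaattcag
Dusp1 (chr17:26508473-26508722, minus strand): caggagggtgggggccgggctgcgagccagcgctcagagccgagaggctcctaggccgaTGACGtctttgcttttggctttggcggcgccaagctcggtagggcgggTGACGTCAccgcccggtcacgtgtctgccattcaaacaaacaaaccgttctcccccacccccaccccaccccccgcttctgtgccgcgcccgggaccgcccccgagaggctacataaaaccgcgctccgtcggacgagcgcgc
Zfp36 (chr7:28379229-28379478, minus strand): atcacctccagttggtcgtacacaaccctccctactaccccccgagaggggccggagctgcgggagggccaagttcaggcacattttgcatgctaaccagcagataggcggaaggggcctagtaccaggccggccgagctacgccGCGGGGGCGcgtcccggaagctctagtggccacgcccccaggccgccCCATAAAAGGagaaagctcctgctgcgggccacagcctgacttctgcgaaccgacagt

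Both strands were searched for the CArG box bound by serum response factor, the cAMP response element TGACGTCA, its half-site TGACG, the AP-1 motif TGANTCA, the EGR motif GCGNGGGCG, the Xbp1s-type element TGACGTGG and TATAAA. The full cAMP response element also counts as half-sites on both strands. The Dusp1 window held the full element 143 to 136 bases before the start and a further half-site 191 to 187 bases before it. The Fos window held half-sites at 129 to 125 and 66 to 62 bases and TATAAA at 33 to 28 bases before the start. The Junb window had 1 half-site, 106 to 102 bases before the start. The Zfp36 window had a CArG box at 58 to 49 bases and an EGR motif at 105 to 97 bases before the start. Half-sites were in 3 of the 6 windows, against 17.8% of 32851 windows of the same length in the whole table. The full element was in 1 of 6 (1.55% of all windows), as were the CArG box (1.47%), the EGR motif (4.70%) and TATAAA (12.4%). No match to TGANTCA (6.75% of all windows) or TGACGTGG (0.563%) was found in the 6 windows, nor to any of the motifs in the windows of Ier3 and Jun. Btg2, not detected on the arrays, also had an entry and is not in these counts. Its window held the full element at 166 to 159 bases and an EGR motif at 131 to 123 bases before the start. A match describes letters and not a bound site.

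**Figure D1:**
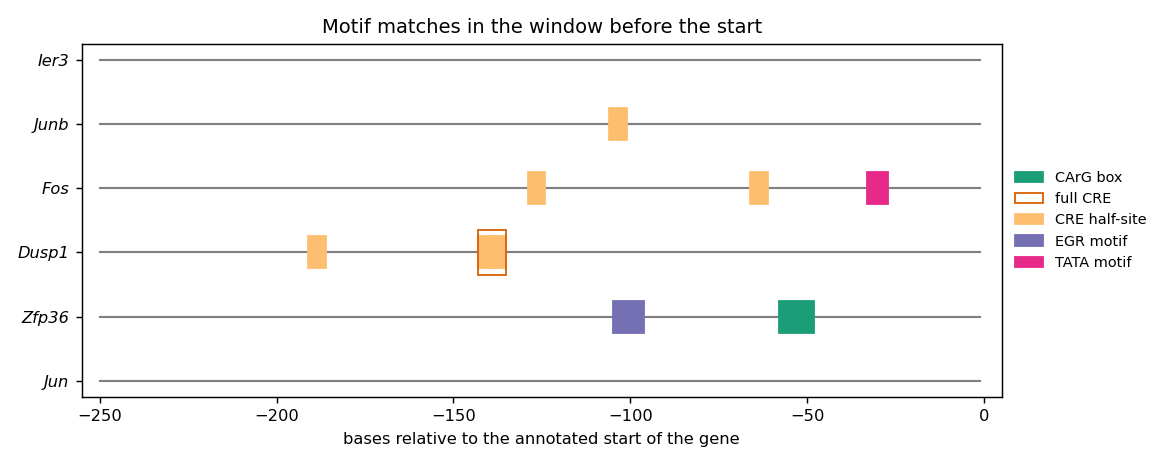
Positions of the motif matches in the 250 bases before the annotated start of 6 genes, in bases from the start. Coloured blocks are matches on either strand and the open box around half-sites is the full cAMP response element. Dusp1 holds 3 half-site matches including those of the full element, Fos 2 and Junb 1, while Zfp36 holds the CArG box and the EGR motif.

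Some checks of the labels bear on the directions. Xbp1 itself read 4350 in LIXs against 5210 in WT at 48 h and 4537 against 4259 at 24 h, an average difference of -0.09 ± 0.22 (SE, limma adjusted p = 0.837). Dnajc3 and Syvn1, known to be raised by Xbp1s and named here with their values known, fell on the arrays labelled LIXs by 1.32 ± 0.22 and 1.21 ± 0.25 on the log2 scale (SE, limma adjusted p = 0.022 and 0.029). Of 9 detected genes of the fasted state, 5 were at least 2-fold higher on the array labelled refed than on the one labelled fasted and 0 lower. Over all 8884 genes, 12.3% were higher and 11.9% lower. Of 5 detected fed-state genes 0 differed 2-fold, against 24.1% of all genes in either direction, so these 5 say little. Dnajc3 and Syvn1 run against the genotype labels and the fasted-state genes against the feeding labels, while Xbp1 showed no clear difference. No wider list of Xbp1s targets was scored, so the genotype check rests on this chosen pair. Whether labels were exchanged was not tested. An exchange of LIXs and WT at both times would turn the genotype differences and move the changes over time to the other genotype. An exchange of refed and fasted would turn the comparison of these arrays and leave the Dox comparisons as they are. Comparisons of the nutritional arrays with WT at 24 h would rest on other arrays. Below, LIXs, WT, refed and fasted mean the arrays so labelled.

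Of 8 hepatocyte markers 7 were detected on all arrays, and Tat was at background. The summed intensity of 10 pancreatic acinar genes was 31776 on the array labelled LIXs at 24 h, and between 11954 and 13679 on the other 5. The arrays had between 12160 and 12226 probes above background.

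Among the AP-1 subunits, Fos was dim. Its deposited intensity was 249 on the refed array and 168 on the fasted array, 132 and 195 on the LIXs and WT arrays at 48 h, and 133 and 133 on the LIXs and WT arrays at 24 h. The last pair and LIXs at 48 h lay just above the detection level of 129, so the ratios of Fos are the least certain. Jun read 267 refed and 336 fasted, 211 and 285 in LIXs and WT at 48 h, and 171 and 200 in LIXs and WT at 24 h. Jun was highest on the fasted array, unlike the other 6 genes.

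Junb read 1139 refed and 688 fasted, 425 and 683 in LIXs and WT at 48 h, and 321 and 320 in LIXs and WT at 24 h. The refed array was highest, and both arrays at 24 h were lowest and nearly equal. A second Junb probe was above background on the fasted array alone, at 133 against readings of 103 to 125 elsewhere. It therefore neither repeats nor contradicts the first.

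Egr1, a zinc finger transcription factor, had the widest range of deposited intensity, 4.34-fold from the lowest to the highest array. It read 4032 refed and 930 fasted, 1837 and 1917 in LIXs and WT at 48 h, and 1160 and 979 in LIXs and WT at 24 h. The refed array stood above all others. Both arrays at 48 h were higher than both at 24 h.

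Ier3, an early response gene induced by NF-κB and ERK signalling, read 425 refed and 314 fasted, 284 and 630 in LIXs and WT at 48 h, and 229 and 223 in LIXs and WT at 24 h. It was the single detected gene whose highest value was on the WT array at 48 h. The refed array came next, and the 24 h arrays were nearly equal.

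Of the feedback genes, Dusp1 read 1007 refed and 560 fasted, 831 and 956 in LIXs and WT at 48 h, and 983 and 495 in LIXs and WT at 24 h. Here 4 arrays lay close together, and WT at 24 h and the fasted array were low. Zfp36 read 1928 refed and 1029 fasted, 793 and 840 in LIXs and WT at 48 h, and 677 and 461 in LIXs and WT at 24 h. Both nutritional arrays were above all 4 Dox arrays, and WT at 24 h was the lowest.

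Ier2, an early response gene of the nucleus, read between 99.4 and 118. Btg2 read between 96.5 and 114, and the 2 Myc probes between 102 and 125 and between 100 and 116. These values lie below the detection level on all 6 arrays, so no ratio is given for the 3 genes. The Myc probe that reached 125 on the LIXs array at 24 h was the nearest to the level from below.

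By array, the 5 genes Fos, Junb, Egr1, Dusp1 and Zfp36 were highest when refed. Among the 4 Dox arrays alone, WT at 48 h was highest for 6 of 7 genes, all but Dusp1, and WT at 24 h was lowest for 5 of 7, all but Fos and Jun. With 1 array per group, no spread is at hand to tell neighbours in these orders apart.

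**Figure D2:**
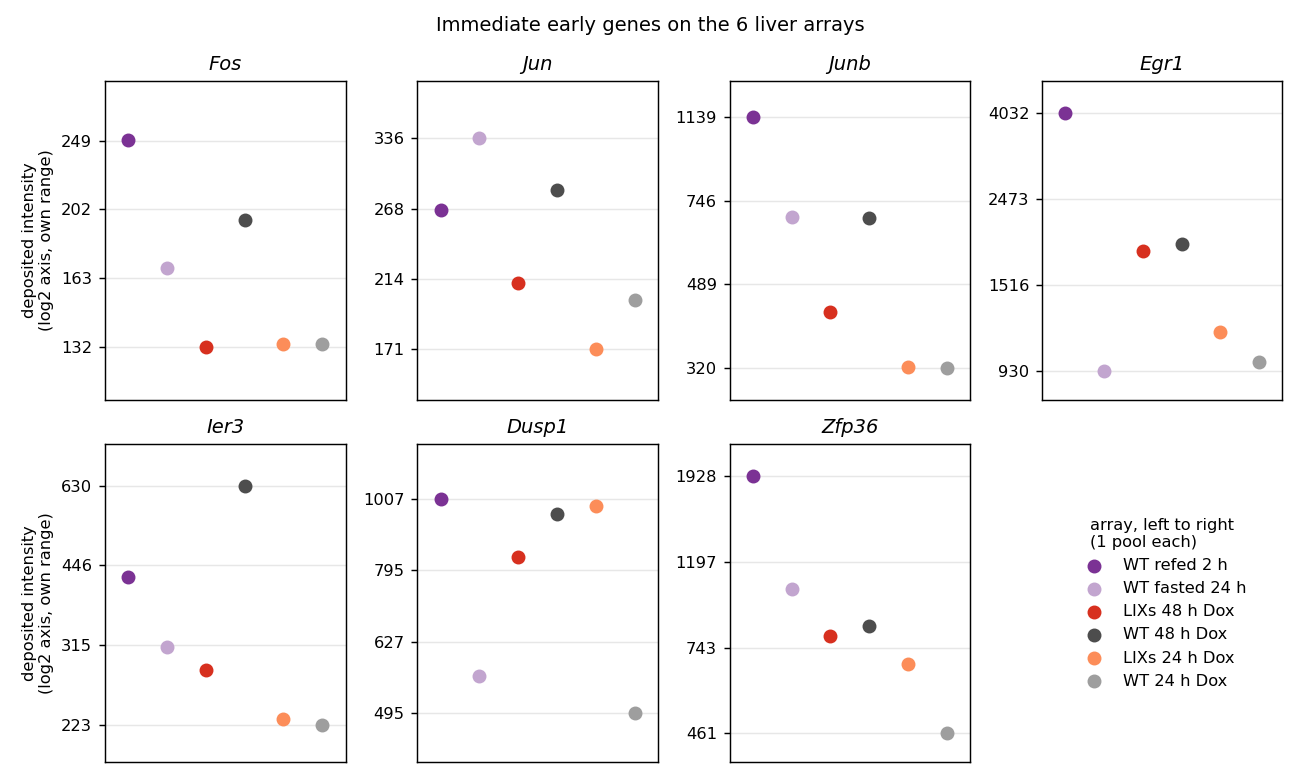
Deposited intensity of the 7 detected immediate early genes on each of the 6 arrays, 1 point per array, on log2 axes with their own range in each panel. The refed array is highest in 5 panels, and the WT array at 48 h is above the LIXs array at 48 h in all 7.

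The genotype comparison was designed to ask how induced Xbp1s alters liver transcripts. Induction is taken from the labels, as Xbp1, Dnajc3 and Syvn1 were on average not higher on the arrays labelled LIXs. Averaged over both times, 0 of the 7 detected genes passed limma's test at an adjusted p under 0.05 (7666 genes, 2 arrays per genotype, time on Dox as a block). Over all genes tested, 8.81% passed. At an unadjusted p under 0.05 there were 3 of 7, against 29.2% of all genes. The median difference of the 7 genes was -0.41 on the log2 scale, against 0.01 over all genes, with 3 above and 4 below 0.

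The average differences of Egr1 and Zfp36 were below or close to their errors, and those of the other genes were larger than theirs. Ier3 averaged 7.33 on the log2 scale in LIXs and 8.05 in WT, a difference of -0.71 ± 0.32 (SE, limma adjusted p = 0.165). Fos differed by -0.70 ± 0.30 (limma adjusted p = 0.151) and Jun by -0.58 ± 0.21 (adjusted p = 0.107). Jun was the one of these with a like sign and size at both times, -0.70 at 48 h and -0.46 at 24 h. Junb differed by -0.41 ± 0.25, Egr1 by 0.10 ± 0.22, Zfp36 by 0.29 ± 0.24 and Dusp1 by 0.46 ± 0.30, with adjusted p between 0.295 and 0.798 in the limma fit.

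With 1 of the 4 arrays left out, the time block had to be dropped too, since 3 arrays leave a blocked fit no residual degree of freedom. Genotype is then mixed with time on Dox, and 1 arm is a single array assumed to vary like the pair of the other arm. In such fits Ier3 differed by -1.74 and Fos by -1.37 without the WT array at 24 h, with limma adjusted p = 0.021 and 0.030. Without the WT array at 48 h, Ier3 differed by 0.31 and Junb by 0.28. With all 4 arrays and the block, Ier3 passed without background correction at -0.56 and with an offset of 50 at -0.65 (limma adjusted p = 0.018 and 0.013).

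At 48 h of Dox all 7 genes read lower in the pool labelled LIXs than in that labelled WT, with a median log2 difference of -0.70 against 0.00 over 8133 genes. Ier3 was 2.82-fold lower and Fos 2.62-fold lower, at log2 differences of -1.49 and -1.39. These 2 of 7 passed 2-fold, against 2.43% of all genes in that direction. The ratio of deposited intensities was 0.677 for Fos and 0.450 for Ier3, and without background correction 1 of 7 was past 2-fold, against 0.393% of all genes. Junb differed by -0.83, Dusp1 by -0.23, Zfp36 by -0.09 and Egr1 by -0.06. No test is possible for this pair of arrays. In the same comparison all 4 neutrophil genes tested were below 0, with a median of -0.80, and all 7 hepatocyte genes were above 0, with a median of 0.34. Sinusoidal endothelial genes were above 0 in 5 of 6 and stellate genes below 0 in 4 of 5. At 24 h all 7 hepatocyte genes were above 0 too, with a median of 0.44, and so were 2 of 4 neutrophil genes. Of 8 neutrophil genes, 1 was detected on all arrays. Of the neutrophil genes, Mpo fell in the averaged test by 1.07 ± 0.21 (SE, limma adjusted p = 0.028), with 116 in LIXs, below the detection level, against 143 in WT at 48 h. The part of these genes in the immediate early values was not tested.

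At 24 h of Dox the differences ran the other way for some genes. Dusp1 was 2.21-fold higher on the array labelled LIXs than on that labelled WT, a log2 difference of 1.15, and was 1 of 7 past 2-fold upward, against 3.72% of 8067 genes. Its deposited ratio was 1.99, and without background correction 0 of 7 passed, against 1.28% of all genes. Zfp36 differed by 0.67 and Egr1 by 0.27, and Ier3, Junb and Fos lay within 0.07 of 0. The median was 0.07 against 0.02 over all genes. The acinar transcripts described above were high on the same LIXs array, and their part in these values was not tested.

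**Figure D3:**
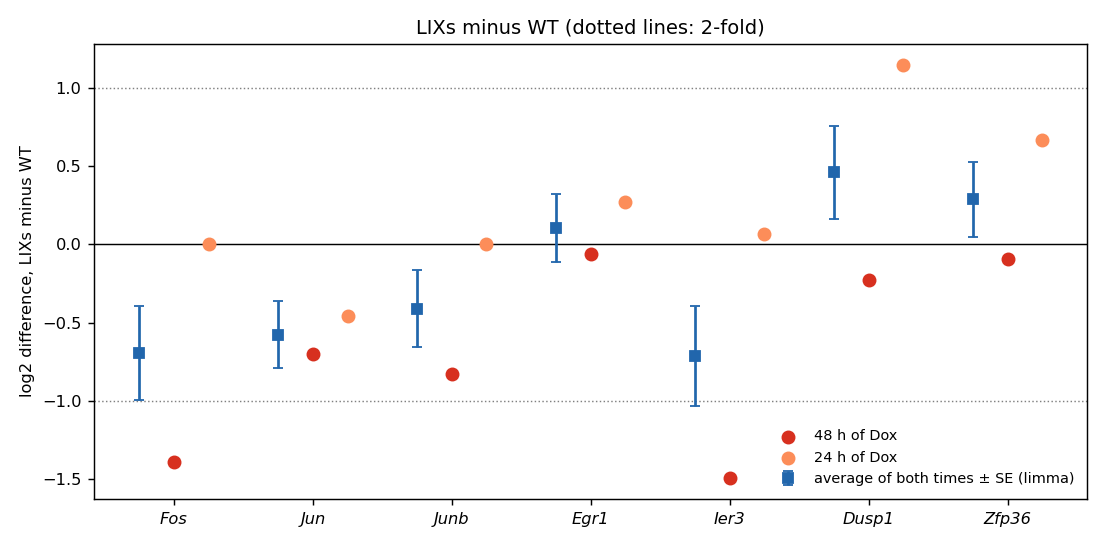
Log2 difference of LIXs minus WT for the 7 detected genes, as the average of both times with its SE (squares), at 48 h and at 24 h (points, 1 array per genotype). All 7 points at 48 h lie below 0, while Dusp1 at 24 h lies above the 2-fold line.

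The livers at 48 h of Dox were also set against those at 24 h within each genotype. In LIXs, 0 of 7 genes passed 2-fold in either direction between 48 h and 24 h, against 1.32% of 8024 genes. Egr1 differed by 0.71, Jun by 0.60, Junb by 0.54, Ier3 by 0.48 and Zfp36 by 0.26, and Fos and Dusp1 by -0.04 and -0.27. The median was 0.48 against 0.03 over all genes.

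In WT, all 7 genes were higher at 48 h than at 24 h, with a median log2 difference of 1.10 against -0.01 over 8097 genes. Ier3 was 4.13-fold higher, Junb 2.60-fold, Fos 2.55-fold, Dusp1 2.15-fold, Egr1 2.06-fold and Zfp36 2.03-fold, while Jun was 1.79-fold higher. Thus 6 of 7 passed 2-fold, against 2.43% of all genes in that direction. The ratios of deposited intensities were 2.82 for Ier3, 2.13 for Junb and 1.42 to 1.96 for the other 5, and without background correction 2 of 7 passed, against 0.506% of all genes. The LIXs difference less the WT difference was below 0 for each of the 7 genes, at -1.56 for Ier3 and -0.24 for Jun as the extremes. This gap was not tested, since each value rests on 2 arrays, and it is the same quantity as the change of the genotype difference between the times. WT over time and LIXs against WT at 48 h both used the WT array at 48 h. That array was the highest Dox array for 6 of the 7 genes, so these results are not independent. The same sharing holds for list genes named below in both comparisons.

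Other transcript sums also differed between 48 h and 24 h of Dox. The 9 detected genes of the fasted state summed to 11894 and 10919 in LIXs at 48 h and 24 h, and to 9670 and 6878 in WT. In WT, 4 of the 9 were past 2-fold upward as fitted, against 2.43% of all genes, among them Pdk4, with 422 at 48 h and 161 at 24 h, and Cyp4a14, with 4400 and 2152. The summed intensity of 11 detected heat shock genes was 15875 and 13815 in LIXs at 48 h and 24 h, and 16096 and 11431 in WT. For 6 detected neutrophil genes of 8 it was 829 and 815 in LIXs and 971 and 834 in WT, with Camp and Ltf at background. Most of the WT gap was S100a8 alone, with 320 at 48 h and 199 at 24 h. The 15 detected acute phase genes summed to 169533 and 152830 in LIXs and to 169207 and 144724 in WT. The part of these lists in the values of the immediate early genes was not tested.

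**Figure D4:**
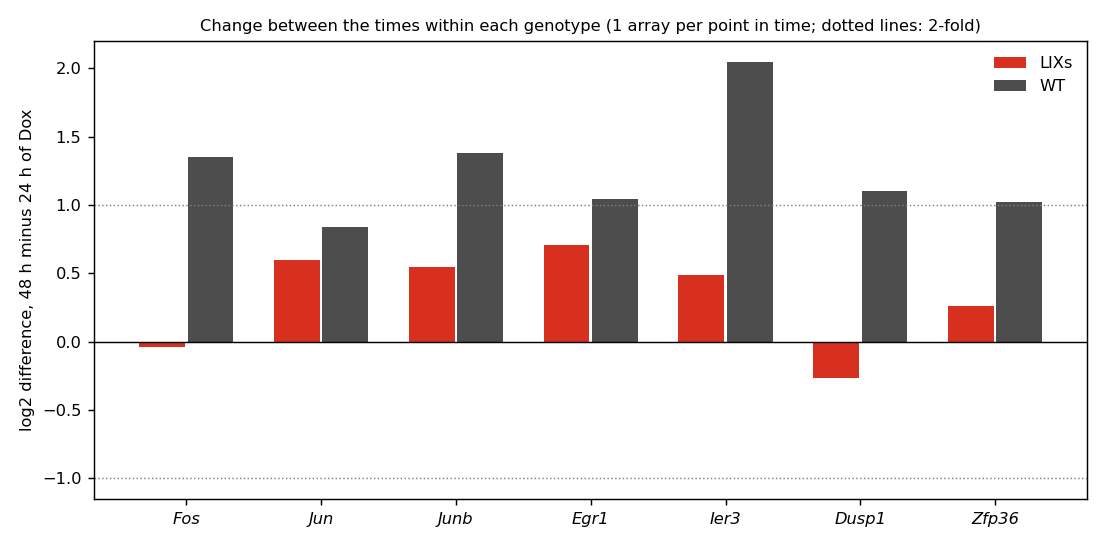
Log2 difference between 48 h and 24 h of Dox within LIXs and within WT for the 7 detected genes, as bars from 0, 1 array per time and genotype. The WT bar is above the LIXs bar for each gene, from Jun with the smallest gap to Ier3 with the largest.

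Refeeding against fasting was compared on the nutritional arrays. Egr1 was 4.71-fold higher on the array labelled refed than on the one labelled fasted, and Fos was 2.08-fold higher. Zfp36 and Dusp1 followed at 1.96-fold each, and Junb at 1.76-fold. Ier3 and Jun had log2 differences of 0.59 and -0.48. In all, 2 of 7 passed 2-fold upward, against 12.3% of 8884 genes, and the median was 0.97 against -0.09 over all genes. Without background correction Egr1 alone passed, against 2.06% of all genes.

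Set against WT at 24 h of Dox, the refed array was higher in all 7 genes. Zfp36 had a log2 difference of 2.32, Junb 2.20, Egr1 2.15, Fos 1.97, Ier3 1.35, Dusp1 1.18 and Jun 0.70. Thus 6 of 7 passed 2-fold, against 6.86% of 8295 genes. Without background correction 4 of 7 passed, against 2.27%, with Fos at 0.91 and Ier3 at 0.93. On the fasted array, 3 of 7 passed against the same WT array, Junb at 1.39, Zfp36 at 1.35 and Jun at 1.18, against 17% of 8860 genes. Without background correction 2 of 7 passed, against 3.5%, with Jun at 0.75. Both comparisons share the WT array at 24 h, the lowest Dox array for most of these genes.

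The refed array also had more neutrophil and heat shock signal. The neutrophil sum was 2119 refed, against 913 fasted and at most 971 on the Dox arrays. Most of that gap was S100a8, with 1436 refed and 343 fasted. The heat shock sum was 26641 refed and 15118 fasted, and that of the acute phase genes 242650 and 161725. Their part in the immediate early values was not tested.

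Related genes were followed through lists drawn from textbook knowledge, but with earlier results of these data known. Counts from these lists beside the shares over all genes are therefore descriptions only. Of the AP-1 subunits and dimer partners outside the 10 genes, 0 of 5 tested passed the averaged limma test. Atf3, a stress-induced partner of Jun, read 298 refed and 172 fasted, 230 and 546 in LIXs and WT at 48 h, and 169 and 163 in LIXs and WT at 24 h. It was 3.31-fold lower in LIXs than in WT at 48 h, and 6.45-fold higher in WT at 48 h than in WT at 24 h. It was the 1 of 6 genes of its list past 2-fold in each of these comparisons, against 2.43% of all genes in each. Fosl2 was at least 3.12-fold higher on the refed than on the fasted array.

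Of the EGR, NR4A and KLF factors, 0 of 8 passed the averaged test. Klf6 was 2.81-fold higher in WT at 48 h than at 24 h, with 752 and 327, and 2.52-fold higher refed than fasted, with 590 and 290. Egr2, a close relative of Egr1, read 216 refed and 151 fasted and between 128 and 147 on the Dox arrays. Klf10 went the other way and was at least 3.95-fold lower on the refed than on the fasted array. Between WT at 48 h and 24 h, 2 of 10 were past 2-fold upward as fitted, against 2.43% of all genes. The other was Max, the Myc partner, whose reading at 24 h was below the detection level, so that it was shown only to be at least 1.19-fold higher.

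Of the feedback phosphatases and Sprouty genes, 0 of 8 passed the averaged test. Dusp8, a phosphatase of JNK and p38 kinases, was 2.69-fold lower in LIXs than in WT at 48 h, with 147 and 239. It was at least 4.02-fold higher in WT at 48 h than at 24 h. Dusp5 and Dusp6, which act on ERK, were 2.43-fold and 2.48-fold higher refed than fasted, and Dusp16 was 2.31-fold higher. Dusp7 was 2.20-fold lower in that comparison.

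Of the other early response genes, 3 of 25 rose and 1 fell in the averaged test, against 4.34% and 4.46% of all genes. Nfkbia, the inhibitor of NF-κB, rose in LIXs by 0.98 ± 0.21 (SE, limma adjusted p = 0.030). It read 419 in LIXs against 268 in WT at 48 h, and 362 against 222 at 24 h. Cish, a target of STAT5, rose by 0.88 ± 0.21 and Phlda1 by 0.85 ± 0.22 (limma adjusted p = 0.035 and 0.043). Odc1, the first enzyme of polyamine synthesis and a Myc target, fell by 1.08 ± 0.21 (limma adjusted p = 0.027). Its intensity was 1823 in LIXs against 3824 in WT at 48 h, and 1437 against 2866 at 24 h. These 4 genes were named for passing the test. Without a filter on dim probes 0 genes passed it, so neither these 4 nor any other gene named as passing did so there.

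In the same list, Cdkn1a, the cell cycle inhibitor p21, was 2.31-fold lower in LIXs than in WT at 48 h, with 656 and 1393. It was 3.91-fold higher in WT at 48 h than at 24 h, and Socs3, the feedback inhibitor of IL-6 signalling, was 2.61-fold higher. These were 2 of 25 genes of the list, against 2.43% of all genes. Refed against fasted, 12 of 26 were past 2-fold upward as fitted and 1, Arc, downward, against 12.3% and 11.9% of all genes. For Rnd3, 1 of the 12, and for Arc the dim reading was below the detection level and the bound was 1.84-fold, short of 2-fold. Among them were Gadd45b at 3.74-fold, Pim3 at 3.74-fold, Bcl3 at 2.92-fold, and Tnfaip3 and Rhob at least 4.13-fold and 4.51-fold higher as bounds. Per1, a clock gene, was 2.24-fold higher.

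Of 10 genes of mRNA decay and the BTG and TOB family, 0 passed the averaged test. Zfp36l1, the paralogue of Zfp36, read 7998 refed and 8362 fasted, 5555 and 3890 in LIXs and WT at 48 h, and 4601 and 2974 in LIXs and WT at 24 h. Its averaged difference was 0.59 ± 0.21 (limma adjusted p = 0.102). Refed against fasted, Zc3h12a was 2.85-fold lower and the RNA-binding gene Elavl1 3.40-fold higher. Cnot1, the scaffold of the deadenylase complex, was at least 1.28-fold higher as a bound. Tob2 was 2.75-fold higher on the fasted array than in WT at 24 h.

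Among 12 tested kinases and factors upstream of these genes, 0 passed the averaged test. Egfr read 4218 refed and 5963 fasted, 2499 and 2047 in LIXs and WT at 48 h, and 2028 and 1548 in LIXs and WT at 24 h. Both nutritional arrays were above all Dox arrays, and Map2k4 had the same order, with 441 and 479 against 258 to 308. Of 10 Myc targets of ribosome making and metabolism, 0 rose and 1 fell, against 4.34% and 4.46% of all genes, Nop58 by 0.79 ± 0.21 (limma adjusted p = 0.044). Cad differed by -0.73 ± 0.23 (adjusted p = 0.069).

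The genes outside the 10 whose profiles over the 6 arrays were nearest to the mean of the 7 detected genes were sought among 5670 genes with a range of at least 2-fold. Plscr1 was the nearest, with a root mean square difference of 0.14 on the log2 scale. It read 607 refed and 337 fasted, 264 and 398 in LIXs and WT at 48 h, and 257 and 230 in LIXs and WT at 24 h. Hdc, the histamine-forming enzyme, followed at 0.17, then Slc45a3, Rcan1, Rps6ka3, Cyb561, Ripk4, Dusp5, Gja1 and Myd88 with 0.19 to 0.23. Rcan1, a feedback inhibitor of calcineurin, read 1308 refed and 686 fasted, 696 and 1184 in LIXs and WT at 48 h, and 469 and 538 in LIXs and WT at 24 h. The 7 genes themselves lay 0.29 to 0.51 from their own mean, with Junb and Fos at 0.29 and Dusp1 the farthest. Rps6ka3 was above background on 3 of the 6 arrays, and Cyb561 and Dusp5 on 4. The nearest genes were picked for their nearness among 5670, so their smaller distances follow from that choice. Likeness over 6 arrays is a description of these arrays.

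**Figure D5:**
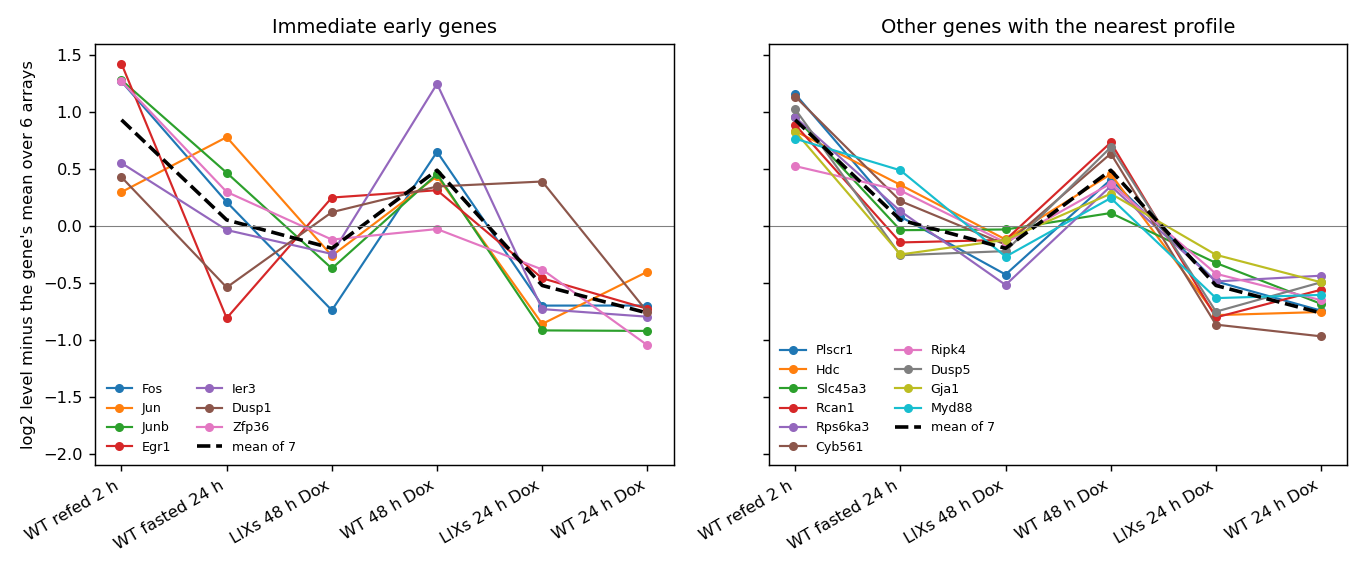
Log2 level minus the gene's own mean over the 6 arrays, for the 7 detected genes (left) and the 10 other genes with the nearest profile (right). Lines join the arrays as a guide, and the dashed line is the mean of the 7, highest at 0.93 on the refed array and lowest at -0.76 on the WT array at 24 h.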

How the data were processed

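Biotinylated cRNA of 6 pooled liver samples was hybridised to Illumina bead arrays, per the labels' protocols. The authors deposited a linear intensity for each of 45281 probes, made with GenomeStudio per the submitters' processing notes. The software version was not given in the sources used here, nor was the way arrays were normalized. Sorted log2 values on the arrays lay within 0.0199 of those on the LIXs array at 24 h, so they were taken as normalized and not background-subtracted. A further table with 12 columns of signals and detection p-values was left unused, as its column names could be tied to no sample label.

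The mode of all intensities, 109, with an SD of 7.64 from the mirrored values below it, set the background for normexp in limma. After adding an offset of 16, the arrays were quantile-normalized and log2 was taken (limma 3.58.1, R 4.3.3). Probes counted as detected above an intensity of 129, a level that a fraction of 0.01 of the mirrored background values exceeds. Of the probes, 34885 had 1 gene name, 18 several and 10378 none, and 34807 matched the RefSeq table by gene identifier. Each gene was represented by its brightest probe. Promoter sequences are those of RefSeq (GRCm38.p6), in which 7 of the 10 genes had an entry, and Egr1, Ier2 and Myc did not.

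LIXs minus WT was averaged over both times with lmFit and eBayes on the 4 Dox arrays, time as a block, for genes detected on at least 2 of them, with Benjamini-Hochberg adjustment. The fit had 1 residual degree of freedom and 9.81 prior degrees of freedom at a prior SD of 0.222, so an SE comes mostly from all genes together. The residual is the genotype difference at 48 h less that at 24 h, so a gene whose difference changed between the times has a larger SE. Arrays hold pools, and the p-values speak of these arrays only. They measure no spread between animals or repeat arrays. Pairs of arrays have no test and were read at 2-fold among genes detected on either array. Where the dim array was not above background, the ratio is a bound ("at least") and the 2-fold call, made on fitted values, can exceed it, taken against the array's lowest detected signal or the gene's own signal if higher. Named list genes passed the averaged test or 2-fold in at least 2 of 7 comparisons of 2 arrays, at most 8 per list. Fosl2, Max, Dusp7, Arc, Rnd3, Cish, Nfkbia, Odc1 and Phlda1 were named after their values were seen. The 10 genes and the lists were chosen with earlier results of these data known.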

Additional observations from a re-analysis of the deposited data

Results flagged for a closer look

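For 5 genes the LIXs minus WT difference, by the labels, had opposite signs at 48 h and 24 h of Dox, with 1 array per genotype and time. The difference at 48 h less that at 24 h was -1.56 for Ier3, -1.37 for Dusp1, -0.83 for Junb, -0.76 for Zfp36 and -0.33 for Egr1 on the log2 scale. The sign at 24 h is of little weight for Junb and Ier3, whose differences there were 0.0045 and 0.07, and at 48 h for Egr1 and Zfp36, at -0.06 and -0.09. For Fos and Dusp1 the change between 48 h and 24 h was below 0 in LIXs and above 0 in WT, with a gap of -1.39 and -1.37. These differences were not tested, because no group has a second array. The difference at 48 h less that at 24 h is also the residual of the averaged test, and a large one raises the SE there.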

How the results depend on the processing

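Each value rests on 1 pool per group, and signals near background (Fos) limit the ratios. Of 294 differences of single genes recomputed, 293 kept their sign, the exception being Junb at 24 h (0.0045). Many of these signs could not change. The filter on dim probes and the detection level leave the values of single genes as they are. The mean of detected probes can alter Junb alone, and the background correction and offset mainly change the size of a difference. The count is therefore no measure of robustness. With the averaged test, 675 genes passed, against 1671 without background correction, 1282 with an offset of 50, 68 with a permissive detection level, 0 without a filter on dim probes (limma, 2913 at an unadjusted p under 0.05) and 0 without the time block (1808 unadjusted). Leaving out 1 array, which also drops the time block and leaves 1 arm with a single array assumed to vary like the other arm, gave 0 to 298 genes, namely 0 without LIXs at 24 h (641 unadjusted), 23 without LIXs at 48 h, 255 without WT at 24 h and 298 without WT at 48 h. Of the 7 immediate early genes, 1 passed without background correction and 1 with the offset of 50 (Ier3 in both), and 0 to 2 with 1 array left out (Fos and Ier3 without WT at 24 h). With 1 array and the block left out, averages ranged from -1.10 to 0.28 for Junb, -0.42 to 0.62 for Egr1, -1.74 to 0.31 for Ier3, -0.091 to 1.01 for Dusp1 and -0.22 to 0.80 for Zfp36. Both changes together turned the sign for Egr1, Dusp1 and Zfp36 without WT at 24 h, for Egr1 (-0.25) without LIXs at 48 h, and for Junb and Ier3 without WT at 48 h. Genes at 2-fold without background correction and with an offset of 50 numbered 42 and 103 for LIXs against WT at 48 h (327 as reported), 255 and 403 at 24 h (695), 28 and 42 for 48 h against 24 h in LIXs (106), 56 and 121 in WT (304), 255 and 702 for refed against fasted (2143), 356 and 540 for refed against WT at 24 h (1109), and 657 and 1319 for fasted against WT at 24 h (2849). Without background correction the immediate early genes at 2-fold were 1 lower at 48 h, 0 higher at 24 h, 2 higher in WT over time, 1 higher for refed against fasted, and 4 and 2 higher for refed and fasted against WT at 24 h. With the offset of 50 they were 1 lower at 48 h and 1 higher for refed against fasted. Higher calls made up 23.8% of calls at 48 h, 17.9% for LIXs over time and 71.8% for refed against fasted without background correction, and 23.8% for LIXs over time with the offset of 50. With the mean of both Junb probes, its log2 difference was -0.19 at 48 h, 0.64 for WT over time, 0.24 for refed against fasted and 1.34 for refed against WT at 24 h. The cause of these shifts was not tested. The time block sets LIXs against WT within each time. No pairing by replicate number exists, as each group has 1 array.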
